A study of Mus with 30 samples.

Results

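The 38 transcripts described here were the most abundant RNAs of the mouse heart in these tables once the identifiers taken as mitochondrial were set aside. They were selected on measured values, as every Ensembl transcript listed in all 30 tables with a mean of 500 FPKM or more over the 5 Control mice. FPKM, the reading given here to the deposited values, counts fragments scaled by the length of the transcript and by the size of the library. They were 38 of 36503 identifiers listed in any table, and of 21342 Ensembl transcripts listed in all 30. The selection left out 14 mitochondrial identifiers, of which 10 reached 500 FPKM, and 11 others by name, of which 2 did. Another 16 transcript models made by the authors' assembly reached the level but carry no Ensembl identifier and were not eligible.

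Hearts of C57BL/6 mice without genetic change were sequenced in 6 groups of 5 mice. Control mice received saline infusion and saline treatment for 28 days, and the other 5 groups received angiotensin II (Ang II), a hormone that constricts vessels, for the same 28 days at a rate of 500 ng/kg/min. The Ang II group was treated with saline, and the others with ethoxysanguinarine (ETH), baicalin (BAI) or gastrodin (GAS) at 5 mg/kg/day, or with valsartan (VAL), a blocker of the Ang II receptor, at 10.4 mg/kg/day. The mice were male and 8 weeks old at the start, as the study's methods give for the gastrodin experiment, and each library came from 1 mouse.

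A few transcripts usually dominate the RNA of the heart, because the tissue is built mainly of contracting cells that need large amounts of contractile protein and of the proteins that burn fat and sugar. Part of the respiratory chain is encoded in the mitochondrial genome, whose own transcripts reach very high levels in this tissue. As FPKM is a share of each library, a high level of these transcripts leaves less for the rest. The tables do not pair identifiers with gene names, and of the 38 transcripts 0 could be matched to a symbol in the reference used, so the transcripts are named by identifier, their functions and sequences are not given, and neither the tissue nor the nuclear origin of the transcripts could be checked against marker genes.

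The levels fell steeply from the first to the last of the 38. ENSMUST00000189941 had a Control mean of 45003 ± 4519.5 FPKM (SD, n = 5 mice here and below), ENSMUST00000187117 of 34385 ± 3448, ENSMUST00000188231 of 32248 ± 2985 and ENSMUST00000190277 of 31950.2 ± 1979.7. The Control ranges of the last 3 overlapped, whereas ENSMUST00000189941 was the highest of the 38 in 30 of 30 mice. These 4 transcripts held the first 4 ranks in all 30 mice, and ENSMUST00000188299, at 5604 ± 675 FPKM in Control, held rank 5 in 29.

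Below these 5 leading transcripts came ENSMUST00000169226 at 4122 ± 1376 FPKM in Control, ENSMUST00000113685 at 2728 ± 237 and ENSMUST00000177974 at 2525 ± 275. ENSMUST00000070532 followed at 2107 ± 226 FPKM and ENSMUST00000079784 at 2091 ± 393, a difference smaller than the spread of either. In all, 18 of the 38 reached 1000 FPKM in Control, and 4 reached 10000.

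**Figure D1:**
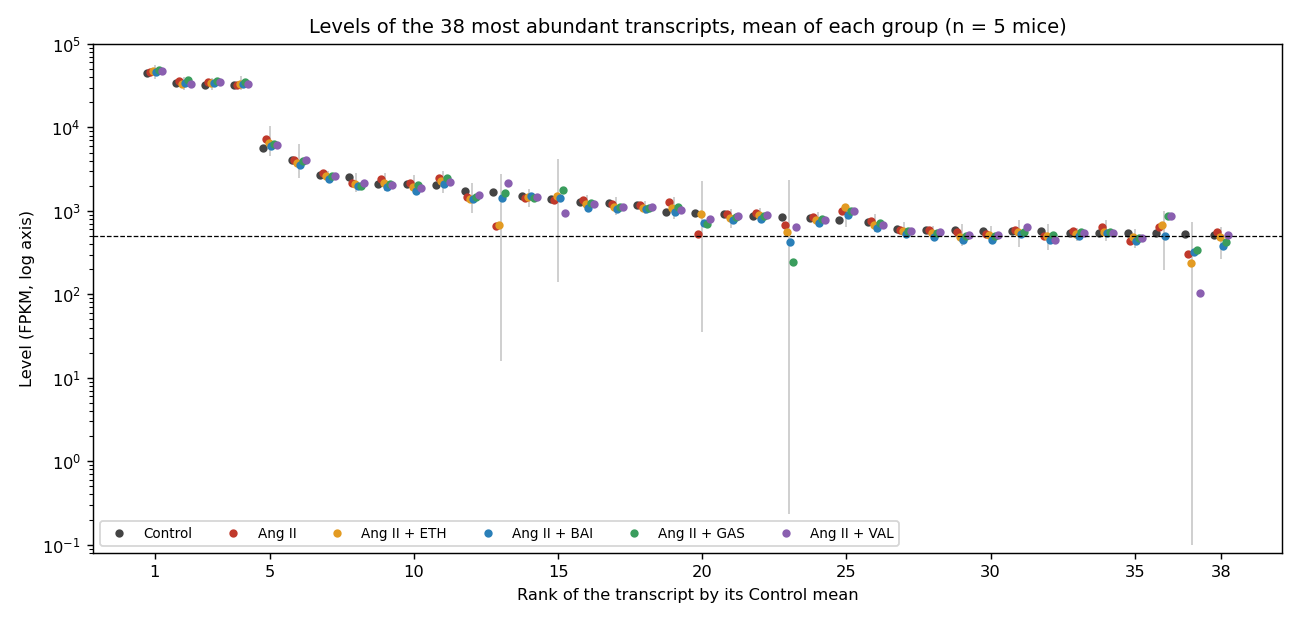
Level of each of the 38 transcripts (FPKM, log axis) against its rank by Control mean, with 1 point for the mean of each group (n = 5 mice), a grey line from the lowest to the highest mouse and a dashed line at 500 FPKM. The 4 first transcripts stand above 10000 FPKM in every group, and the long grey lines mark transcripts that differed widely between mice, the longest being cut at 0.1 because a value of 0 has no place on a log axis.

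Near the selection level, ENSMUST00000023677 (518 ± 88.1 FPKM in Control) and ENSMUST00000168401 (529 ± 303) were just inside, and ENSMUST00000023934 (497 ± 113) and ENSMUST00000101554 (494 ± 66.1) just outside. The border is therefore narrower than the spread between mice. The mean was at or above 500 FPKM in all 6 groups for 28 of the 38, and every one of the 30 mice was at or above 500 FPKM for 22. The same level applied to the Ang II group gave 43 transcripts, of which 36 were among the 38, and applied to the Ang II + baicalin group gave 31, of which 28 were.

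Together the 38 transcripts took 27.8 to 33.9% of the summed FPKM of a mouse, with a median of 31.0%. Their sum lay between 169081 and 217560 FPKM, and 73.9 to 85.0% of it (median 80.9%) belonged to the 5 leading transcripts. The mitochondrial identifiers that were set aside took 24.8 to 38.4% of the total, which itself ran from 562189 to 654188 FPKM.

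The sum over the 33 other transcripts was lowest in the Ang II + baicalin group. Its 5 mice had 32354, 33027, 34095, 35188 and 36110.4 FPKM, whereas the Ang II mice had 35312, 37094, 38304, 39332 and 41002. The ranges of these groups overlapped, since the lowest Ang II mouse lay below the highest baicalin mouse. The medians of the other groups were 37775 FPKM in Control, 35291 with ethoxysanguinarine, 37538 with gastrodin and 37705 with valsartan.

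The sum over the 5 leading transcripts spread more widely in the baicalin group than in any other, from 138563 to 183076 FPKM, and the Ang II range of 144051 to 167643 lay inside this. The mean of the Ang II + gastrodin group, 163063 ± 9283 FPKM, was the highest of the 6 and that of Control, 149190 ± 11868, the lowest, with ranges that overlapped. These sums run over transcripts chosen by their level and were not tested.

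**Figure D2:**
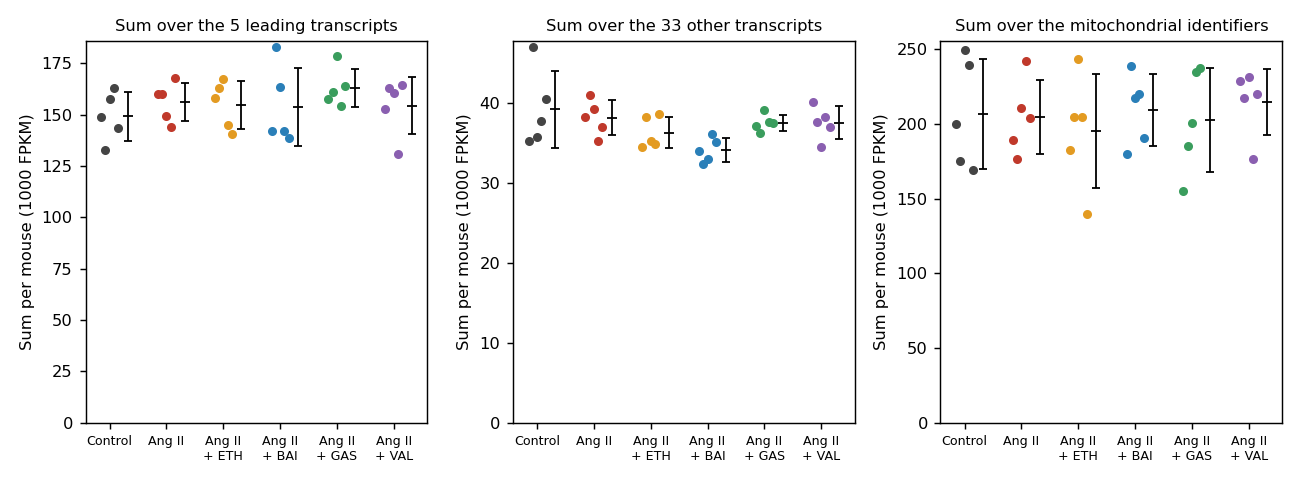
Sum per mouse (in units of 1000 FPKM) over the 5 leading transcripts, over the 33 other transcripts and over the mitochondrial identifiers, with 1 point per mouse and the mean ± SD of each group of 5 mice beside it. In the middle panel 4 of the 5 baicalin mice lie below every Ang II mouse, while in the left and right panels the groups overlap throughout.

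Each of the 5 leading transcripts correlated positively with the summed mitochondrial identifiers between mice, to differing degrees. The closest pair was ENSMUST00000188299 with the mitochondrial identifier ENSMUST00000082411. In the Control mice ENSMUST00000188299 stood at 5585, 4523, 6332, 5953 and 5624 FPKM, and ENSMUST00000082411 in the same mice at 6073, 4812, 7434, 6546 and 5836. The mouse with the least of one also had the least of the other, and the mouse with the most of one had the most of the other.

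The ratio of ENSMUST00000188299 to ENSMUST00000082411 stayed between 0.793 and 0.981 in all 30 mice, with a median of 0.923. It held in Ang II mouse 5156, whose level of ENSMUST00000188299, 10409 FPKM, was the highest of the 30, beside 10961 for ENSMUST00000082411. Their log2 deviations from the group means correlated at r = 0.915 over 30 mice, which as a description of these libraries shares the scaling of each library between both values. Whether the pair shares reads was not tested.

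With the sum of the mitochondrial identifiers the correlation was weaker. Over all 5 leading transcripts r ran from 0.247 to 0.563, computed in the same way over 30 mice. It ran from 0.482 to 0.708 after each transcript was divided by the library total without the mitochondrial identifiers and the 5 leading transcripts. The mitochondrial sum itself was not rescaled. The divisor leaves out the mitochondrial identifiers and can fall as their share rises, so the higher r cannot be read as a closer link. ENSMUST00000189941 correlated with ENSMUST00000188231 at r = 0.869 and with ENSMUST00000190277 at r = 0.843, but with ENSMUST00000187117 at r = 0.422. Among the 33 other transcripts 27 had a negative r with the mitochondrial sum (median -0.22), and 12 after the rescaling (median 0.13). The highest r of any of these 33 with any of the 9 mitochondrial identifiers compared was 0.433. All values of a library share 1 scaling factor, so these figures describe the libraries and carry no test.

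Most of the 38 were steady between mice of one group. The coefficient of variation within groups, averaged over the 6 groups, was under 10% for 21 of them, 10 to under 25% for 11, and at or above 40% for 6. Its median was 9.40%, beside 10.4% for the 251 Ensembl transcripts with a Control mean of 100 to under 500 FPKM, used below as the comparison. A coefficient at or above 40% was found for 15.8% of the 38 and for 8.37% of the comparison transcripts, a difference that was not tested.

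The 2 steadiest transcripts were ENSMUST00000102874 and ENSMUST00000107684. ENSMUST00000102874 ran from 451 to 651 FPKM over all 30 mice and ENSMUST00000107684 from 669 to 964. In the valsartan group ENSMUST00000107684 stood at 799.5, 782, 747, 784 and 771 FPKM, with a mean of 777 ± 19.3.

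The 6 widely varying transcripts were ENSMUST00000027671, ENSMUST00000230031, ENSMUST00000226297, ENSMUST00000200021, ENSMUST00000044048 and ENSMUST00000168401, and the first 2 of these ranked 13 and 15 by Control mean. ENSMUST00000168401, ENSMUST00000027671 and ENSMUST00000044048 stood at either of 2 levels, whereas ENSMUST00000230031 and ENSMUST00000226297 ran from low to high without a clear gap.

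ENSMUST00000168401 was either near 0 or at 178 to 728 FPKM. Control mice had 620.5, 728, 0.0323, 577 and 719 FPKM. Ang II mice had 441, 535, 0, 0.0382 and 528 FPKM. Ang II + valsartan mice had 523, 0, 0.0668, 0 and 0.0084 FPKM. The low level was thus found in 1 Control mouse, 2 Ang II mice and 4 valsartan mice, and also in 3 ethoxysanguinarine, 1 baicalin and 2 gastrodin mice.

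All 13 mice in which ENSMUST00000168401 was listed under 1 FPKM had 494 to 1094 FPKM of another Ensembl transcript, ENSMUST00000015712, and the remaining 17 mice, with 178 to 728 FPKM of ENSMUST00000168401, had 1.88 to 146 FPKM of it. ENSMUST00000015712 was found after the values were seen, as the identifier out of 28297 whose sum with ENSMUST00000168401 varied least. The sum ran from 181 to 1094 FPKM, and the correlation was r = -0.84 over 30 mice. The values show a trade between 2 identifiers within a mouse. Whether the 2 belong to 1 gene could not be read from the files.

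ENSMUST00000027671 also had 2 levels, 1513 to 2799 FPKM in 18 mice and 15.8 to 627 in 12. Ang II mice had 257, 2123, 581, 200.4 and 135 FPKM. Ang II + gastrodin mice had 1905, 2048, 618, 1852 and 1763 FPKM. Ang II + valsartan mice had 2139, 2040.2, 2255, 2241 and 2252 FPKM. The high level was found in 1 of 5 Ang II mice, 4 of 5 gastrodin mice and 5 of 5 valsartan mice, and in 3 Control, 1 ethoxysanguinarine and 4 baicalin mice.

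The identifier that traded most closely with ENSMUST00000027671 was an assembled model with no Ensembl name, MERGE.1044.12, chosen in the same way. It was above 0 in 8 mice, at 1252 to 2422 FPKM, and in these 8 ENSMUST00000027671 was at 568 FPKM or less. It was listed at 0 in all 10 gastrodin and valsartan mice and above 0 in 2 Control, 3 Ang II, 2 ethoxysanguinarine and 1 baicalin mice. In the other 22 mice ENSMUST00000027671 ran from 343 to 2799 FPKM, so the trade leaves 4 of its 12 low mice without the model.

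ENSMUST00000023677, the last of the 38, traded with ENSMUST00000139277. In 11 mice ENSMUST00000139277 was at 23.7 to 261 FPKM and ENSMUST00000023677 at 268 to 483, and in the remaining 19 they were at 0 to 8.49 and at 485 to 646. The coefficient of variation over 30 mice was 23.4% for ENSMUST00000023677 alone and 10.8% for the sum. ENSMUST00000230031 (rank 15) and ENSMUST00000169226 (rank 6), both among the 38, had a sum of 3742 to 6935 FPKM with a coefficient of variation of 15.8%. ENSMUST00000230031 alone ran from 142 to 4218 FPKM (72.9%), and the larger ENSMUST00000169226 alone had a coefficient of 20.2%. The SD of the sum was 0.824 of that of ENSMUST00000230031. Both pairs came from the same search of 28297 identifiers, made after the values were seen. It returns for every transcript the identifier whose sum with it varies least, so a pair carries no test.

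**Figure D3:**
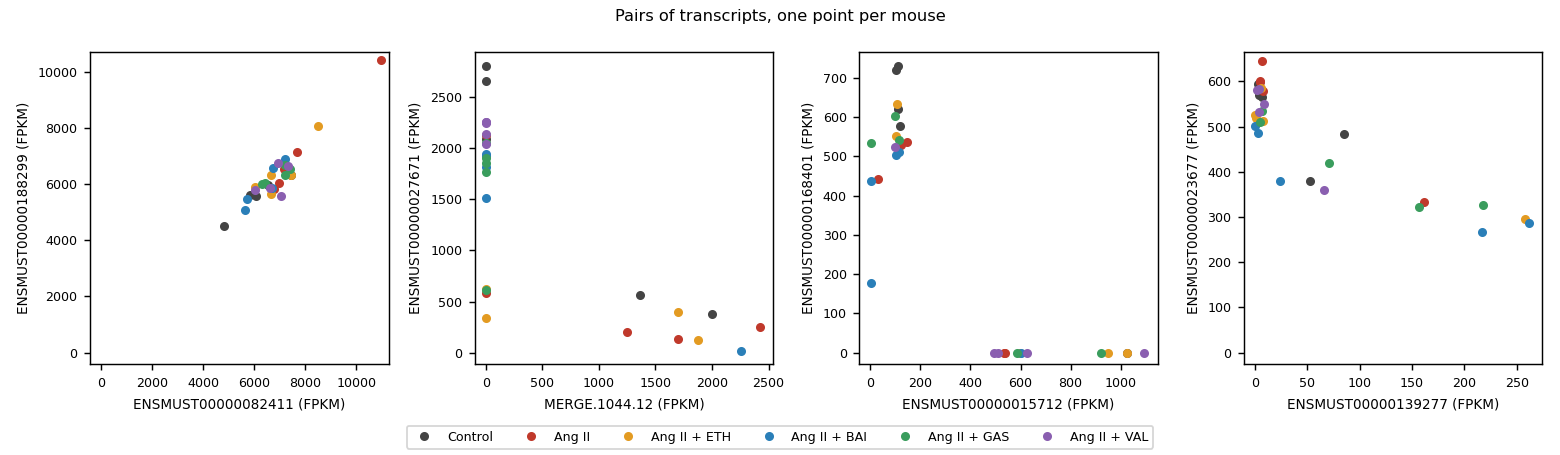
Level of a transcript (FPKM, vertical axis) against the level of the identifier it varied with (FPKM, horizontal axis) for 4 pairs, with 1 point per mouse coloured by group. In the first panel both rise together with a ratio of 0.793 to 0.981, and in the other 3 panels mice high in one identifier are low in the other.

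ENSMUST00000200021, with the widest spread after ENSMUST00000168401, was raised in single mice. It stood at 1129 to 2367 FPKM in 5 mice, 1 in each group but gastrodin, and at 162 to 773 in 24. The remaining mouse, of the gastrodin group, had 0.231 FPKM. Its Control mean of 837 FPKM, which brought it into the 38, rests on Control values of 2257, 479.8, 426, 773 and 247, of which 3 lie below 500.

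ENSMUST00000226297 ran from 35.2 to 2280.2 FPKM and reached 1149 to 2280.2 in 7 mice of 5 groups. ENSMUST00000044048 was at 624 to 999 FPKM in 21 mice and at 195 to 373 in 9. None of these 9 was a gastrodin or valsartan mouse, whereas 2 were Control, 2 Ang II, 2 ethoxysanguinarine and 3 baicalin mice. This split was seen after the fact. The log2 difference of ENSMUST00000044048 from Ang II was 0.63 with gastrodin (SE 0.41, limma adjusted p = 0.841). With valsartan it was 0.63 (SE 0.41, limma adjusted p = 0.871).

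The Control mice chose the 38, so Ang II against Control is described here without a test. The median difference over the 38 was 0.03 on the log2(FPKM + 1) scale, against -0.01 over the 18354 transcripts compared. In this comparison 1.13% of all transcripts were higher in Ang II with no overlap between the groups and 1.13% lower, and among the 38 there was 1 higher and 0 lower.

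The single transcript without overlap was ENSMUST00000169169. Control mice had 798, 1130.4, 1027, 1049 and 907 FPKM, and Ang II mice had 1139, 1449, 1277, 1253 and 1191. Every Ang II mouse lay above every Control mouse, and the difference of the mean log2 values was 0.37. ENSMUST00000027671 had a difference of -1.72 and ENSMUST00000226297 of -1.12, with groups that overlapped.

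Each drug group was compared with the Ang II group, which the selection did not use. All 4 comparisons use the same 5 Ang II mice, so they are not independent of each other. No transcript of the 38 passed an adjusted p under 0.05 in limma in any of them. The smallest adjusted p among the 38 was 0.418 for ethoxysanguinarine, 0.255 for baicalin, 0.778 for gastrodin and 0.561 for valsartan. Over all transcripts tested, 0.132% passed for ethoxysanguinarine (of 18242), 0.0165% for baicalin (of 18140), 0.022% for gastrodin (of 18155) and 0.022% for valsartan (of 18196). ENSMUST00000168401 was not tested for valsartan, because it reached 1 FPKM in fewer than 5 of the 10 mice.

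At an unadjusted p under 0.05 the baicalin comparison, on the values as deposited, had the most transcripts lower. It had 16 of the 38 lower (42.1%), beside 6.73% of all transcripts, and 0 higher, beside 3.02%. The comparison transcripts at 100 to under 500 FPKM gave 42.2% lower, so the share among the 38 was close to that of other abundant transcripts. The median log2 difference was -0.22 for the 38, -0.22 for the comparison transcripts and -0.05 for all transcripts tested. In whole tissue, fewer cells of a type and less RNA per cell cannot be told apart. The count of 16 fell to 2 after quantile normalization, where valsartan had 4 lower and baicalin no longer had the most. It fell to 7 without the mean-variance trend and to 6 when libraries were scaled without the mitochondrial identifiers. With all 6 groups in 1 limma fit ENSMUST00000034049 and ENSMUST00000032373 passed (adjusted p = 0.0417 for each). That fit takes in the Control mice, which chose the 38, and the share of all transcripts that passed in it was not counted.

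For ethoxysanguinarine 4 of the 38 (10.5%) were lower at an unadjusted p under 0.05, beside 4.23% of all and 20.3% of the comparison transcripts, and 0 were higher, beside 4.06% of all. For gastrodin 5 (13.2%) were lower, beside 3.6% of all and 15.9% of the comparison transcripts, and 1 was higher, beside 2.61% of all. For valsartan 5 of the 37 tested (13.5%) were lower, beside 3.53% of all and 20.3% of the comparison transcripts, and 1 was higher, beside 2.7% of all. The median log2 differences of the 38 were -0.11, -0.08 and -0.09, and those of the comparison transcripts -0.10, -0.09 and -0.11. After quantile normalization the medians of the 38 became 0.0007, 0.02 and -0.04. The direction for gastrodin turned, and that for ethoxysanguinarine did not hold, with 18 lower and 20 higher. The counts moved as well. Quantile normalization gave 1 lower and 2 higher for ethoxysanguinarine and 0 lower and 2 higher for gastrodin, and without the mean-variance trend 0 were lower for either and 2 for valsartan. Scaling without the mitochondrial identifiers and the 5 leading transcripts gave 0 lower and 4 higher for gastrodin and 3 lower for valsartan. Leaving out ethoxysanguinarine mouse 5125 gave 7 lower. For gastrodin the count lower was 1 without gastrodin mouse 5135 or 5112, 2 without Ang II mouse 5128, and 3 without gastrodin mouse 5158 or Ang II mouse 5143.

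None of the 5 leading transcripts was among those lower at an unadjusted p under 0.05 in any comparison. Their log2 differences from Ang II ran from -0.24 (ENSMUST00000188299 with baicalin, SE 0.16, limma adjusted p = 0.662) to 0.10 (ENSMUST00000190277 with gastrodin, SE 0.07, limma adjusted p = 0.846). For ENSMUST00000189941, the most abundant, the differences were 0.04 with ethoxysanguinarine, 0.01 with baicalin, 0.09 with gastrodin and 0.03 with valsartan, each less than 2 SE from 0 (SE 0.07 to 0.09).

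**Figure D4:**
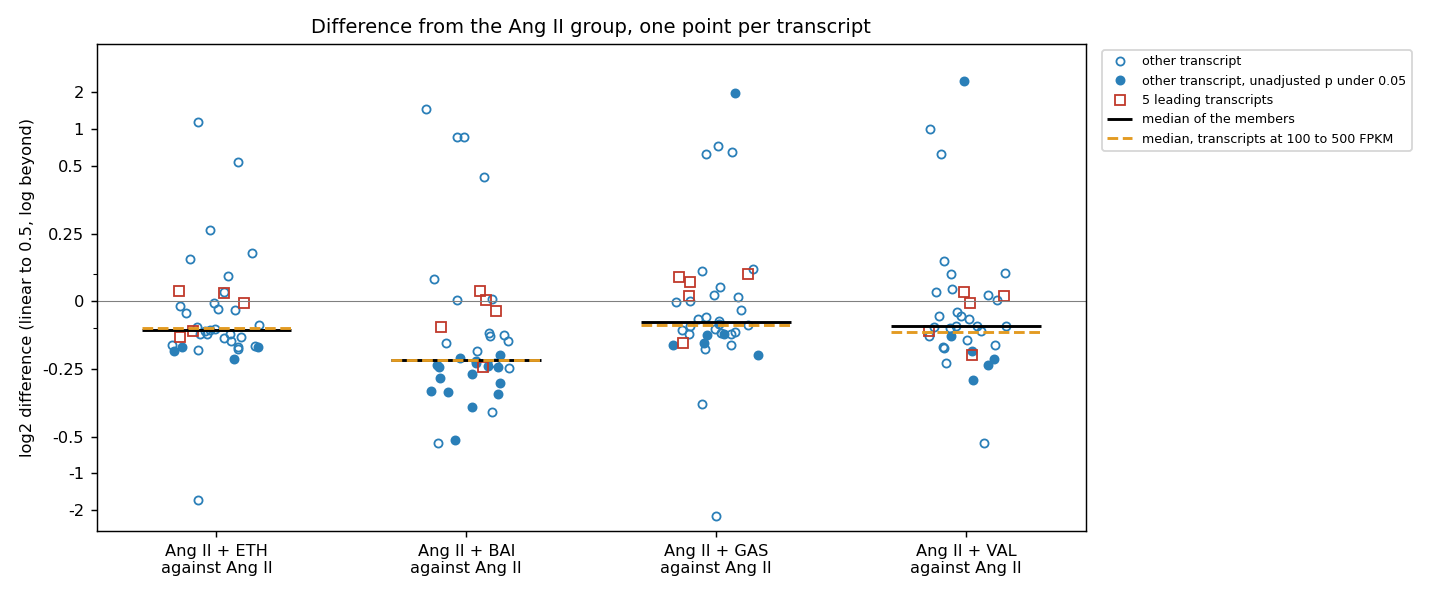
Difference of each of the 38 transcripts from the Ang II group on the log2(FPKM + 1) scale, for the 4 drug groups (5 mice against the same 5 Ang II mice), with an axis that is linear to 0.5 and logarithmic beyond. Solid lines are the medians of the 38 and dashed lines those of the transcripts at 100 to under 500 FPKM, which lie at -0.22 for baicalin and between -0.11 and -0.08 for the others (about 0 for ethoxysanguinarine and gastrodin after quantile normalization), and filled points had an unadjusted p under 0.05.

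The transcripts lower in most comparisons ranked from 9 to 29 by level. ENSMUST00000034049 (rank 16) and ENSMUST00000032373 (rank 29) were lower at an unadjusted p under 0.05 in all 4 comparisons, and ENSMUST00000079784, ENSMUST00000070532 and ENSMUST00000169169 in 3. The Ang II values are common to all 4 comparisons, so a transcript counted in several has not been found low in separate experiments. Of the 38, 4 lay below every Ang II mouse with baicalin, 1 with ethoxysanguinarine, 0 with gastrodin and 1 with valsartan, and 0 lay above. The share of all transcripts without overlap was not counted for the drug comparisons, so lack of overlap is not read as particular to the 38.

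ENSMUST00000034049 stood at 1427, 1418, 1338, 1271 and 1373 FPKM in the Ang II mice. In the baicalin mice it stood at 1054, 1047, 1019.9, 1262 and 1038. The groups did not overlap, although 1 baicalin mouse, number 5140, lay close to the lowest Ang II mouse and the other 4 lay close together. The log2 difference was -0.34 (SE 0.07, limma adjusted p = 0.255). It was -0.17 with ethoxysanguinarine, -0.15 with gastrodin and -0.18 with valsartan, with limma adjusted p of 0.492, 0.778 and 0.688, and the gastrodin difference turned to 0.01 after quantile normalization.

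ENSMUST00000032373 stood at 592, 573, 545, 521 and 565 FPKM in the Ang II mice and at 450.2, 428, 380.3, 530.0 and 427 in the baicalin mice. Mouse 5140 was again the highest of the baicalin mice and here lay above the lowest Ang II mouse. The difference was -0.34 (SE 0.09, limma adjusted p = 0.280). In the ethoxysanguinarine mice, at 476, 517, 482, 471 and 516 FPKM, the transcript lay below every Ang II mouse, with a difference of -0.18 (SE 0.06, limma adjusted p = 0.418). The smallest adjusted p of the 38 in that comparison was this one.

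ENSMUST00000079784 had 2346, 2159, 2075, 2087 and 2254 FPKM in the Ang II mice, and 1752, 1676, 1576, 1981 and 1718 in the baicalin mice. All 5 baicalin mice were below all 5 Ang II mice, with a difference of -0.33 (SE 0.07, limma adjusted p = 0.255), the smallest p of the 38 in this comparison. The valsartan mice, at 1887, 1888, 1639, 1975 and 2047 FPKM, were also below all Ang II mice, with a difference of -0.21 (SE 0.07, limma adjusted p = 0.702).

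ENSMUST00000169169, the transcript that was higher in every Ang II than in every Control mouse, stood at 886, 996, 873, 1087 and 967 FPKM in the baicalin mice, below all Ang II mice. The difference from Ang II was -0.39 (SE 0.08, limma adjusted p = 0.255). With ethoxysanguinarine it was -0.21, with gastrodin -0.16 and with valsartan -0.29, with limma adjusted p of 0.472, 0.778 and 0.693. The group means were 983 ± 130.4 FPKM in Control, 1262 ± 118 in Ang II, 1086 ± 62.4 with ethoxysanguinarine, 962 ± 87.5 with baicalin, 1127 ± 73.1 with gastrodin and 1032 ± 113 with valsartan. Since the Ang II mice enter both comparisons, a lower level with a drug is not independent of the higher level against Control.

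**Figure D5:**
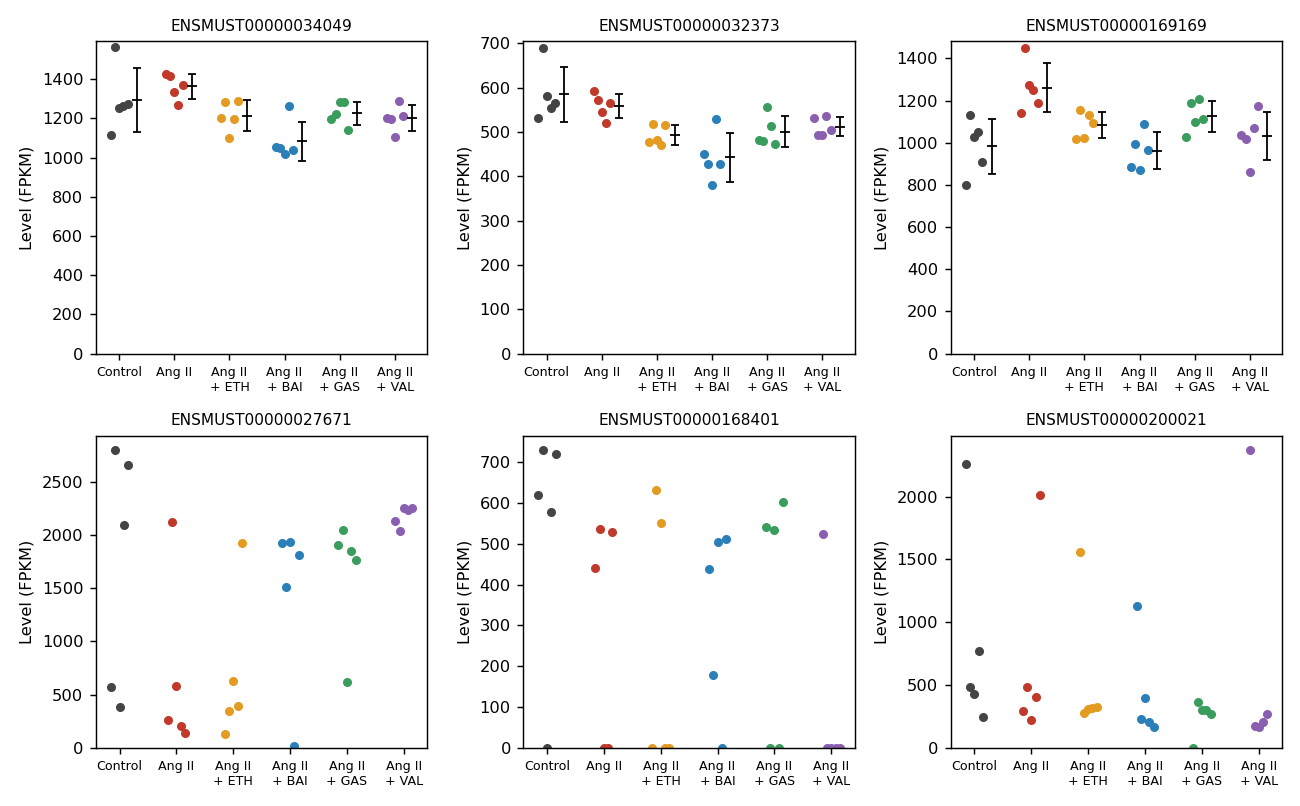
Level per mouse (FPKM) of 6 of the 38 transcripts in the 6 groups, 1 point per mouse, with the mean ± SD of the 5 mice beside the points in the upper row. In the upper row the transcripts were steadier and the baicalin mean was the lowest of the Ang II infused groups, and in the lower row ENSMUST00000027671, ENSMUST00000168401 and ENSMUST00000200021 stood at widely separate levels within 1 group.

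ENSMUST00000070532, ninth by level, had 2279, 2821, 2227, 2414 and 2310.4 FPKM in the Ang II mice and 1885, 1939.8, 1736, 2321 and 1896 in the baicalin mice, with a log2 difference of -0.30 (SE 0.09, limma adjusted p = 0.325). Here too mouse 5140 was the highest baicalin mouse and the only one inside the Ang II range. ENSMUST00000102874, the steadiest of the 38, had 614, 617, 585, 554 and 621 FPKM in the Ang II mice and 502, 495, 464, 551 and 451 in the baicalin mice. Its groups did not overlap, with a difference of -0.28 (SE 0.07, limma adjusted p = 0.259).

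Ang II was the highest of the 5 Ang II infused groups by mean for only 20 of the 38. It was not the highest for the transcripts given here, although baicalin was again the lowest of these groups. ENSMUST00000102486 was lowest in Control, at 784 ± 158 FPKM, and highest with ethoxysanguinarine, at 1107 ± 51.8, and its difference from Ang II there was 0.18 (SE 0.11, limma adjusted p = 0.722). ENSMUST00000111751 had 2481 ± 239.9 FPKM in Ang II and 2499.5 ± 378 with gastrodin, a difference of 0.00 (SE 0.12), and 2106 ± 288 with baicalin. With baicalin it was among those lower at an unadjusted p under 0.05, with a difference of -0.24 (SE 0.11, limma adjusted p = 0.505). ENSMUST00000177974 was highest in Control, at 2525 ± 275 FPKM, and between 1961 and 2147 FPKM in the means of the 5 Ang II infused groups.

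ENSMUST00000014080 was steady in Control, where the 5 mice ran from 1598 to 1829 FPKM, and spread in Ang II, where they had 2149, 933, 1873, 1218 and 1113. No drug group was as wide as the Ang II group for this transcript, with SDs of 119.5 to 327 FPKM beside 525. ENSMUST00000033049 and ENSMUST00000025563 differed little between groups, with group means of 1411 to 1497 FPKM and of 1063 to 1177.

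Higher levels than in Ang II were fewer. ENSMUST00000027671 was the transcript higher at an unadjusted p under 0.05 with gastrodin, by 1.97 on the log2(FPKM + 1) scale (SE 0.70, limma adjusted p = 0.778), and with valsartan, by 2.50 (SE 0.64, limma adjusted p = 0.561). Both differences rest on how many mice of each group stood at the high of its 2 levels. With ethoxysanguinarine the transcript with the smallest p among those with a higher mean was ENSMUST00000019323, with a difference of 0.16 (SE 0.10, limma adjusted p = 0.721), and with baicalin ENSMUST00000226297, with a difference of 0.86 (SE 0.81, limma adjusted p = 0.781). The first falls to 0.08 without Ang II mouse 5161, and the second to 0.04 without Ang II mouse 5156, which had 35.2 FPKM of ENSMUST00000226297.

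Over the 5 Ang II infused groups at once, 0 of the 38 passed an adjusted p under 0.05 in the limma F test, beside 0.00831% of the 24066 transcripts tested. At an unadjusted p under 0.05 there were 10 (26.3%), beside 7.84% of all and 33.1% of the comparison transcripts, and 1 after quantile normalization. The smallest were ENSMUST00000034049 (limma adjusted p = 0.168) and ENSMUST00000169169 (limma adjusted p = 0.205). Without baicalin mouse 5140, 2 passed the F test, ENSMUST00000034049 (limma adjusted p = 0.0368) and ENSMUST00000032373 (limma adjusted p = 0.0431). The share of all transcripts that passed without this mouse was not counted.

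By group means, Ang II was the highest of the 5 Ang II infused groups for 20 of the 38, and baicalin the lowest for 28. The same ranking was not made over all transcripts, so these counts are not read as particular to the 38. Against Ang II alone, baicalin was lower in mean log2 for 29 of the 38, beside 86.5% of the comparison transcripts and 57.0% of all. After quantile normalization baicalin was lower for 25 of the 38. Within the baicalin group the low level was not shared by all mice. The median log2 deviation of the 33 other transcripts, each from its own mean over the 30 mice, was -0.17, -0.21, -0.22 and -0.14 in 4 baicalin mice and 0.03 in mouse 5140. The comparison transcripts moved with them, at -0.09, -0.19, -0.18, -0.15 and 0.06 in the same 5 mice. In the Ang II mice the same median ran from 0.02 to 0.19. The share of the mitochondrial identifiers in these baicalin mice was 31.0 to 36.6% of the total, and in the Ang II mice 28.5 to 37.6%, and its part in the result was not tested.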

How the data were processed

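RNA from mouse hearts was depleted of ribosomal RNA before library preparation. The authors deposited 1 table for each mouse, whose values were taken to be FPKM from their range, scaled by the authors to transcript length and library size, since the unit is not stated. Filtered TPM would look alike. Build mm10 and limma appear in the submitters' processing notes, and DESeq in the study's methods as the differential test. The aligner, assembler, quantifier and annotation were not given in the sources used here. These FPKM are not counts and whole reads were not recovered, so count models were not used and depth is unknown. The labels give 5 mice per group and the study's text 6.

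The values were taken as log2(FPKM + 1) and tested with limma 3.58.1 (R 4.3.3), two-sided, with its trend of variance on mean level, using only the groups compared. A transcript entered if 5 or more libraries had at least 1 FPKM. Adjustment was by Benjamini-Hochberg over every transcript that entered. The test was checked on simulated data. Figures were drawn in Python 3.11.15 with matplotlib 3.10.9.

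The members and lists were chosen with earlier results of these data known. Transcripts were named by level (the 10 highest), closeness to 500 FPKM, spread within groups, smallest p in each direction and in the F test, and lack of overlap between Ang II and Control. Those described for 2 levels or lowness in several comparisons were chosen after their values were seen. So were the other transcripts that these rules do not cover, such as ENSMUST00000014080, ENSMUST00000033049, ENSMUST00000025563, ENSMUST00000102486 and ENSMUST00000111751. Pathway and cell type lists could not be applied without gene names. Alternatives were quantile normalization, scalings without the mitochondrial identifiers (also without the 5 leading transcripts, added after seeing the data), pseudocount 0.1, omission of the filter, a filter on a mean of at least 5, no trend, all 6 groups in 1 fit, other levels of selection and each mouse left out in turn.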

Additional observations from a re-analysis of the deposited data

Results flagged for a closer look

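Of 150 sets of 5 mice checked, covering 21 of the named transcripts and 4 sums in each of the 6 groups, 25 held 1 mouse far from the other 4. Chance flags about 1 in 20 such sets, but some of these transcripts were named for their wide spread within groups, so the number is partly set by that choice and is not read against it. Most belong to the transcripts described above as widely varying. ENSMUST00000200021 had such a mouse in every group, at 2257 FPKM in Control mouse 5114, 2012 in Ang II mouse 5156, 1556 in ethoxysanguinarine mouse 5141, 1129 in baicalin mouse 5138, 0.231 in gastrodin mouse 5135 and 2367 in valsartan mouse 5131. ENSMUST00000027671 stood apart at 2123 FPKM in Ang II mouse 5128, 1923 in ethoxysanguinarine mouse 5125, 15.8 in baicalin mouse 5140 and 618 in gastrodin mouse 5120. ENSMUST00000168401 stood apart at 0.0323 FPKM in Control mouse 5116 and at 523 in valsartan mouse 5131, and ENSMUST00000226297 at 2280.2 in Control mouse 5155 and 1619 in valsartan mouse 5148. ENSMUST00000023677 was low at 333 FPKM in Ang II mouse 5161, 296 in ethoxysanguinarine mouse 5164 and 360.3 in valsartan mouse 5121.

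Valsartan mouse 5124 was low in 4 of these checks at once. It had 39064 FPKM of ENSMUST00000189941, where the other 4 mice had 47508 or more, 27872 of ENSMUST00000188231, where they had 35721 or more, 169081 in the sum of the 38 and 176980 in the sum of the mitochondrial identifiers. ENSMUST00000188299 was high at 10409 FPKM in Ang II mouse 5156 and at 8077 in ethoxysanguinarine mouse 5164. ENSMUST00000070532 was low at 1789.8 FPKM in gastrodin mouse 5135. ENSMUST00000034049 was high at 1262 FPKM in baicalin mouse 5140, where the other 4 mice had 1019.9 to 1054. No cause was tested for any of these values.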

How the results depend on the processing

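No transcript of the 38 passed an adjusted p under 0.05 in limma under any alternative for ethoxysanguinarine, gastrodin or valsartan (smallest adjusted p 0.0540, for valsartan with 1 mouse left out). For baicalin 2 passed with all 6 groups in 1 fit and 0 under the other alternatives, and with each mouse left out in turn the count stayed from 0 to 0. In the F test over 5 groups the count ran from 0 to 2 with each mouse left out, 2 being without baicalin mouse 5140. It was 0 under the other alternatives. The share of all transcripts that passed was not counted under any alternative. Selection at 250 FPKM gave 109 transcripts and at 1000 FPKM 18, and leaving out each Control mouse gave 37 to 40. The difference of ENSMUST00000034049 with gastrodin turned to 0.0147 (log2) under quantile normalization. The cause was not tested.

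The number of transcripts lower at an unadjusted p under 0.05 with baicalin was 16, and 7 without the mean-variance trend, 2 after quantile normalization, 6 under either scaling without the mitochondrial identifiers and 11 to 16 with each mouse left out. The baicalin median of -0.22 became -0.05 after quantile normalization and -0.14 and -0.10 under the scalings. After quantile normalization 18 of the 38 had a lower mean and 20 a higher with ethoxysanguinarine, beside 29 and 9 without it. No paired analysis was possible because the labels give mouse numbers that no 2 groups share. Depth is unknown, so the precision rests on 5 mice a group.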
